A study of Homo sapiens with 16 samples.

Results

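The cytosolic ribosomal protein genes were described across the 8 groups of a bulk RNA sequencing experiment in LNCaP cells, a prostate cancer line that keeps the androgen receptor and luminal secretory genes. Members were the genes whose symbol has the form RPL or RPS followed by a number (with the suffix A, X or L allowed), together with RPLP0, RPLP1, RPLP2, RPSA and RPL36AL, whose mean normalized count over the 16 samples was 500 or more. Of 82 matching symbols among 60252 gene identifiers, 80 met the threshold, 48 of the large and 32 of the small subunit. The members were thus selected on their measured levels, so these levels and their share of the counts are given as a description with no test. The lowest members were RPL10L (mean normalized count 552.1) and RPL36A (1037), and the matching symbols below the threshold were RPL3L (44.1) and RPL39L, which was listed at 0 in every sample. All 80 members passed the filter on low counts.

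A cytosolic ribosome holds most of these proteins in a single copy, on a scaffold of ribosomal RNA. The large subunit joins amino acids and the small subunit reads the messenger RNA. In human cells nearly every protein is made from a single expressed gene, and many processed pseudogenes resemble it. Transcripts of the family are short, abundant and stable, and most begin with a C and a run of pyrimidines, the terminal oligopyrimidine tract, through which growth signals control their translation. Several of the genes also hold small nucleolar RNAs in their introns.

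Cells in 4 arms, namely a scrambled control siRNA (Scr), either of 2 siRNAs that target OGT (siOGT1 and siOGT2) and the compound OSMI2, were each given DMSO or AT7519. OGT is the enzyme that attaches O-GlcNAc to proteins, OSMI2 is an inhibitor of OGT, and AT7519 is an inhibitor of cyclin-dependent kinases that includes CDK9, the kinase of transcription elongation, among its targets. Knockdown lasted 48 hours and AT7519 was given at 0.5 µM for 4 hours. Every group had 2 samples of total RNA from this 1 line. The labels list OSMI2 in the place of the siRNA, and the sources used here do not give its dose, its duration or whether scrambled siRNA was also present. Nothing says that samples of a group came from separate cultures, so the spread that p-values are based on may be only technical.

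Total counts per sample ran from 40216911 to 147019364. The OGT level, in CPM (counts relative to the TMM-scaled library size), was 274.0 and 263.4 in the Scr DMSO samples and lay between 10.98 and 36.0 in the 8 samples given an siRNA against OGT; in the 4 OSMI2 samples it was 336 to 422. The 8 luminal markers were all present, with summed levels of 5144 to 6441 CPM under DMSO and 4069 to 5222 CPM with AT7519. AT7519 lowered 4 and raised 1 of these 8 in Scr, where 24.6% of all tested genes were lower and 21.8% higher. Summed basal (3 genes), leukocyte (3) and neuroendocrine (2) markers stayed at or below 6.93 CPM in each sample. The 4 stromal markers summed to 13.7 to 40.9 CPM, most of it COL1A1. Their part in the results below was not tested. Less RNA per cell and fewer cells cannot be told apart in such bulk samples.

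The start of a transcript is the one feature by which the family is best known in sequence, so the starts of 3 genes were set beside those of their paralogs, with 2 further members. RefSeq (GRCh38.p14) gave a start for 65 of the 80 members. The run shown holds 70 bases before and the first 30 bases of the transcript, 5′ to 3′, with the unbroken pyrimidines that begin at the start in capitals. The regions were RPS27 at chr1:153990692-153990791 (plus strand), RPS27L at chr15:63157448-63157547 (minus strand), RPL36A at chrX:101390941-101391040 (plus strand), RPL36AL at chr14:49620597-49620696 (minus strand), RPL10 at chrX:154398307-154398406 (plus strand, 1 of 3 listed starts), RPL10L at chr14:46651752-46651851 (minus strand), RPS19 at chr19:41860185-41860284 (plus strand, 1 of 2 listed starts) and RPS10 at chr6:34426040-34426139 (minus strand).
RPS27: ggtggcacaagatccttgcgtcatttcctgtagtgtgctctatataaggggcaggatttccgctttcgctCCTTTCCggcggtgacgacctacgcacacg
RPS27L: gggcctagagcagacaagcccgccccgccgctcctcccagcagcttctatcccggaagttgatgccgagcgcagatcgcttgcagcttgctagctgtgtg
RPL36A: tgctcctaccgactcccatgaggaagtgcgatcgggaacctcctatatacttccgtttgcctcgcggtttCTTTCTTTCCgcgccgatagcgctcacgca
RPL36AL: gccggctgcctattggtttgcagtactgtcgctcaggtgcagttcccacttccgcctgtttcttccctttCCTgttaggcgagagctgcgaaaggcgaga
RPL10: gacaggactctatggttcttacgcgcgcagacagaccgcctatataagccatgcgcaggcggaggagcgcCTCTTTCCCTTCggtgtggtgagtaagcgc
RPL10L: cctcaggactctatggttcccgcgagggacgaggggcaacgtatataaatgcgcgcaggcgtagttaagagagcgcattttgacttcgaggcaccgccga
RPS19: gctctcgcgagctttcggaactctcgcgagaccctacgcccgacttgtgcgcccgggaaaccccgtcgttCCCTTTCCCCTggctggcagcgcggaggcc
RPS10: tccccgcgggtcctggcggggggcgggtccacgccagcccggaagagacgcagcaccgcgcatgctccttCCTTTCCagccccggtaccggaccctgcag
The capitals run for 7 bases in RPS27, 10 in RPL36A and 12 in RPL10, and for 0, 3 and 0 bases in their paralogs RPS27L, RPL36AL and RPL10L. RPS19 and RPS10 hold runs of 11 and 7 bases. RPL10 and RPS19 are shown at the listed start with the longest run, whereas each of the 3 paralogs had only 1 listed start. A start with a C followed by at least 4 pyrimidines was listed for 46 of the 65 members (70.8%) and for 1404 of 27305 genes in the table (5.14%). The letters CCGGAAG, searched on both strands from 250 bases before to 50 after the start, were found in 23 of 65 members (35.4%) and in 12.2% of all genes. The letters TATAAA were found in 9.23% of members against 13.99% of all genes, and TATATA, which can overlap it, in 9.23% against 4.92%. A match describes the letters only.

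The 80 genes took 8.46% and 8.27% of all counts in the Scr DMSO samples. With AT7519 the Scr samples gave 12.1% and 11.8%. Under DMSO the siOGT1 samples gave 7.94% and 7.79%, the siOGT2 samples 7.90% and 7.83%, and the OSMI2 samples 8.26% and 8.24%. All 8 DMSO samples therefore lay within less than 1 percentage point of each other. With AT7519 the siOGT1 samples gave 11.4% and 10.6%, the siOGT2 samples 11.2% and 10.04%, and both OSMI2 samples 12.3%. Every AT7519 sample was above every DMSO sample, and the pairs in siOGT1 and siOGT2 were spread more widely than the other pairs. The large-subunit share rose from 5.09% to 7.27% in Scr and the small-subunit share from 3.28% to 4.71% (means, n = 2). The ratio of large to small counts stayed between 1.48 and 1.57 over the 16 samples. Counting error is small at this depth, since exact (Clopper-Pearson) 95% intervals of these shares were no wider than 0.01 percentage points to either side.

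**Figure D1:**
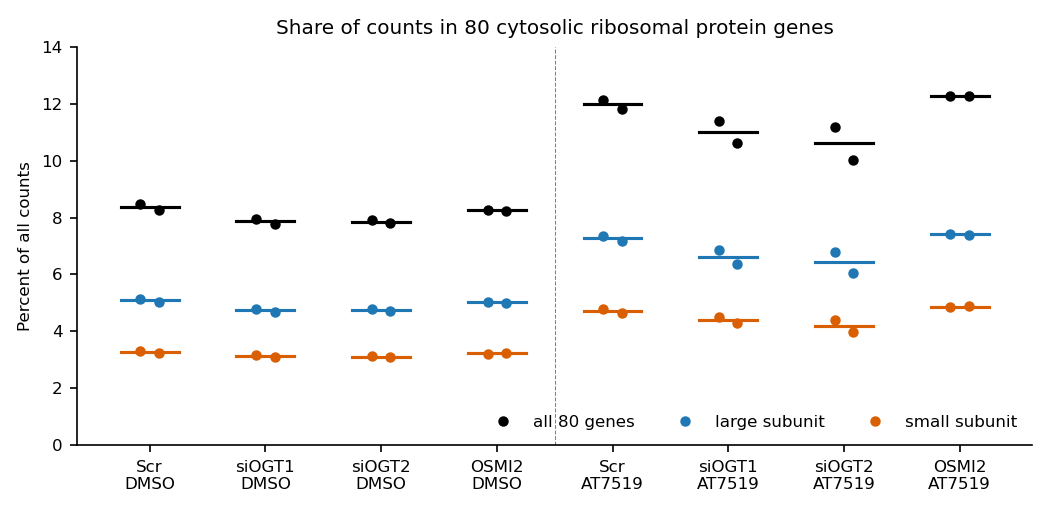
Share of all counts in percent (vertical axis) taken by all 80 genes, the 48 large-subunit and the 32 small-subunit genes in each group (horizontal axis), with each point a sample and each line the mean of 2. In Scr the shares go from 5.09% to 7.27% and from 3.28% to 4.71% with AT7519, and both shares are also higher with AT7519 in the other 3 arms.

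Per kilobase of coding sequence, the level in the Scr DMSO samples had a median of 1896 CPM per kb for large-subunit and 1601 for small-subunit genes. RPL41, which encodes the smallest protein of the ribosome, was highest at 10259 CPM per kb, followed by RPS18 (8572), RPL39 (6609), RPS27 (6483) and RPL37A (4685). This order depends on dividing the counts of the whole gene by its coding length alone. That length is 75 of 469 transcript bases in RPL41 and 153 of 401 in RPL39, against 456 of 613 in RPS18. Levels per kilobase of transcript were not ranked. Toward the other end stood RPS15A (368 CPM per kb), RPL26 (118), RPL17 (71.3), RPS10 (43.1), RPL36A (21.7) and RPL10L (10.5), an intronless copy of RPL10 known from testis. In the GENCODE annotation on GRCh38, 6 members have 40% or more of their coding sequence inside another gene on the same strand, and these held places 74 to 79 of 80 per kilobase. Among them RPL17 lies 100% inside the readthrough gene RPL17-C18orf32, RPS10 92.1% inside RPS10-NUDT3, RPL36A 78.2% inside RPL36A-HNRNPH2, RPL26 71.0% inside AC135178.2 and RPS15A 54.6% inside AC138811.2. HTSeq was used for counting, per the submitters' processing notes, but the sources used here do not give its setting for reads shared by 2 genes, so the levels of these 6 genes are uncertain.

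AT7519 raised 79 of the 80 genes in each of the 4 arms and lowered 0 (edgeR's quasi-likelihood test, Benjamini-Hochberg adjusted p under 0.05 over 23830 genes). Throughout, a rise or fall is relative to the other transcripts of a sample, since the amount of RNA per cell was not measured. No member was lower at an unadjusted p under 0.05 or by DESeq2. The raised genes were 47 of 48 large-subunit and all 32 small-subunit genes, and RPL10L was the gene that did not pass in any arm. Over all tested genes, 21.8% were higher and 24.6% lower in the Scr arm, while the siOGT1 arm had 19.4% and 22%, the siOGT2 arm 22.2% and 22.8%, and the OSMI2 arm 23.6% and 23.6%. Median log2 changes of large and small subunit genes were 0.77 and 0.78 for the Scr arm, 0.71 and 0.74 for siOGT1, 0.71 and 0.73 for siOGT2, and 0.82 and 0.85 for OSMI2. The medians over all genes were -0.05, -0.05, -0.03 and 0.02. Both AT7519 samples were above both DMSO samples of the arm for 80 genes in Scr and siOGT1 and for 79 in siOGT2 and OSMI2, against 33.7%, 33.0%, 33.5% and 37.7% of all tested genes. With scaling by the upper quartile the all-gene median in Scr moved to 0.10 and the subunit medians to 0.92 and 0.93. With library sizes alone these were -0.30, 0.52 and 0.53, and 79 or 80 genes were still higher in each arm.

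**Figure D2:**
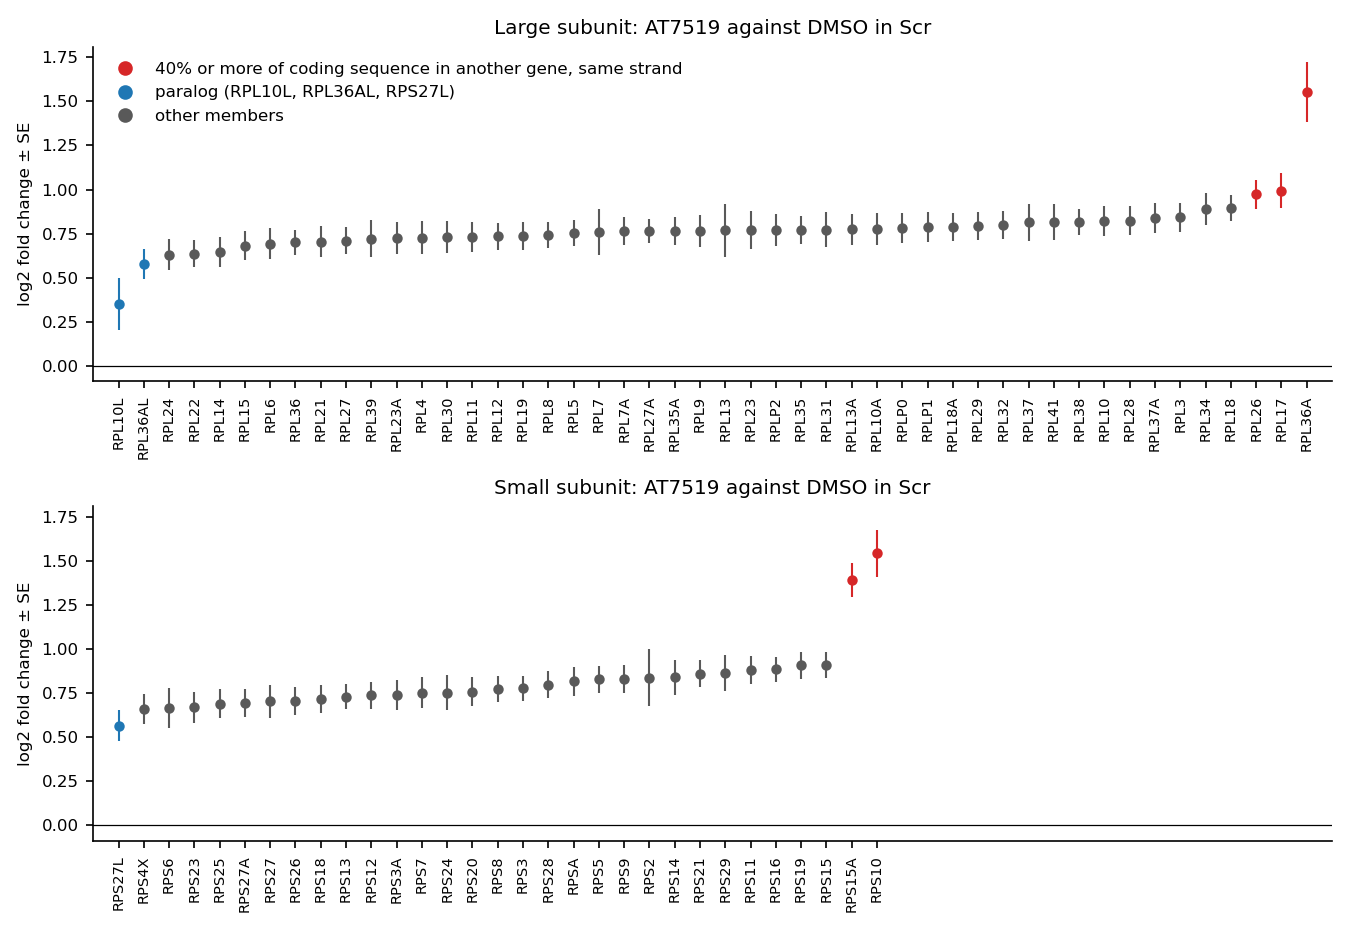
Log2 fold change of AT7519 against DMSO in Scr with its standard error (vertical axis) for 79 of the 80 genes (horizontal axis, large subunit above and small subunit below), coloured by the annotation's overlap with another gene on the same strand and by paralog. Most genes fall in a narrow band around 0.77, the 5 genes drawn with the large overlap reach 0.97 to 1.55 and the paralogs RPL10L, RPS27L and RPL36AL lie at 0.35 to 0.58.

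Among proteins of the stalk that recruits translation factors, RPLP0 was at 2619 and 2501 CPM under DMSO and at 4566 and 4243 CPM with AT7519 in Scr. The groups did not overlap, and the change was 0.78 log2 (SE 0.08, adjusted p = 2.33e-07, edgeR). RPLP1 rose by 0.79 and RPLP2 by 0.77. In the other arms these 3 genes rose by 0.69 to 0.96 on the log2 scale.

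RPL5 and RPL11 carry the 5S ribosomal RNA into the large subunit, and both can bind MDM2 when free. RPL5 went from 927 and 946 to 1618 and 1535 CPM in Scr, a log2 change of 0.75 (SE 0.07). RPL11 went from 673 and 699 to 1214 and 1069 CPM, a change of 0.73 (SE 0.08). Neither pair of groups overlapped. RPL10, placed near the peptidyl transfer centre, rose by 0.82, and RPL39, at the exit tunnel for the new chain, by 0.72. RPL22, an RNA-binding protein of the large subunit, rose by 0.64, RPL24 by 0.63 and RPL14 by 0.65, the lowest changes in the large subunit apart from the paralogs. RPL18 (0.90) and RPL34 (0.89) were the highest in the large subunit apart from genes sharing sequence with a neighbour.

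In the small subunit, RPS6, the classical substrate of S6 kinase, was at 1917 and 1907 CPM under DMSO and at 3277 and 2794 CPM with AT7519 in Scr. The groups did not overlap, the 2 treated samples stood further apart than the controls, and the change was 0.67 (SE 0.11, adjusted p = 7.19e-05, edgeR). RPS14 and RPS19, the first known for its loss in the 5q deletion syndrome and the other for mutations in Diamond-Blackfan anaemia, rose by 0.84 and 0.91. RPS15 rose by 0.91 and RPS16 by 0.88. RPS3, at the entry of the messenger RNA, rose by 0.78, and RPSA, also known as the laminin receptor, by 0.82. The lowest changes were those of RPS27L (0.56), RPS4X (0.66), RPS6 (0.67), RPS23 (0.67), a protein of the decoding centre, and RPS25 (0.69).

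The 6 genes that share coding sequence with a neighbour showed the 6 highest changes in Scr. RPS10 was at 19.3 and 23.4 CPM under DMSO and at 53.8 and 70.2 CPM with AT7519, a log2 change of 1.54 (SE 0.13, 2.91-fold). RPL36A went from 9.84 and 8.63 to 23.7 and 30.6 CPM, a change of 1.55 (SE 0.17). RPS15A went from 139 and 148 to 353 and 400 CPM, a change of 1.39 (SE 0.10, 2.62-fold). For these 3 genes the treated samples were all above 2 times the highest control.
RPL17 rose by 0.99 and RPL26 by 0.97. The median over the 6 was 1.19 in Scr against 0.76 for the other 74 genes, whose range was 0.35 to 0.91. The siOGT1 arm had medians of 1.05 and 0.71, the siOGT2 arm 1.14 and 0.71, and the OSMI2 arm 1.61 and 0.84. In OSMI2 the highest changes were 1.80 for RPS10, 1.77 for RPS15A, 1.70 for RPL36A and 1.53 for RPL17. Of the 6 neighbouring genes only AC135178.2 passed the filter on low counts, at 0.0999 CPM under DMSO and 0.0388 CPM with AT7519 in Scr, and it did not pass the test. Whether reads assigned to both genes had a part in these levels and changes was not tested. Without these 6 genes, AT7519 raised 73 of the 74 in each arm.

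RPS27 and RPS27L encode closely similar proteins, and RPS27L is a known p53 target. RPS27 was at 1589 and 1678 CPM under DMSO and at 2910 and 2410 CPM with AT7519 in Scr, a log2 change of 0.70 (SE 0.09). RPS27L was at 206 and 223 CPM and at 320 and 314 CPM, a change of 0.56 (SE 0.09). Both pairs of groups were separate. RPL36AL, the paralog of RPL36A, went from 240 and 245 to 378 and 345 CPM, a change of 0.58 (SE 0.09). RPL10L was at 7.02 and 6.49 CPM under DMSO and at 9.14 and 8.11 CPM with AT7519. Its change of 0.35 (SE 0.15) had an adjusted p of 0.0603 in edgeR. It passed with the DESeq2 test (0.39) and with upper-quartile scaling (0.50), among other settings. In siOGT1, siOGT2 and OSMI2 the changes of RPL10L were 0.16, 0.10 and 0.14, of RPL36AL 0.51, 0.51 and 0.50, and of RPS27L 0.51, 0.51 and 0.64. The differences between paralogs were not tested. As near-identical sequences, paralogs and processed pseudogenes can share reads.

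**Figure D3:**
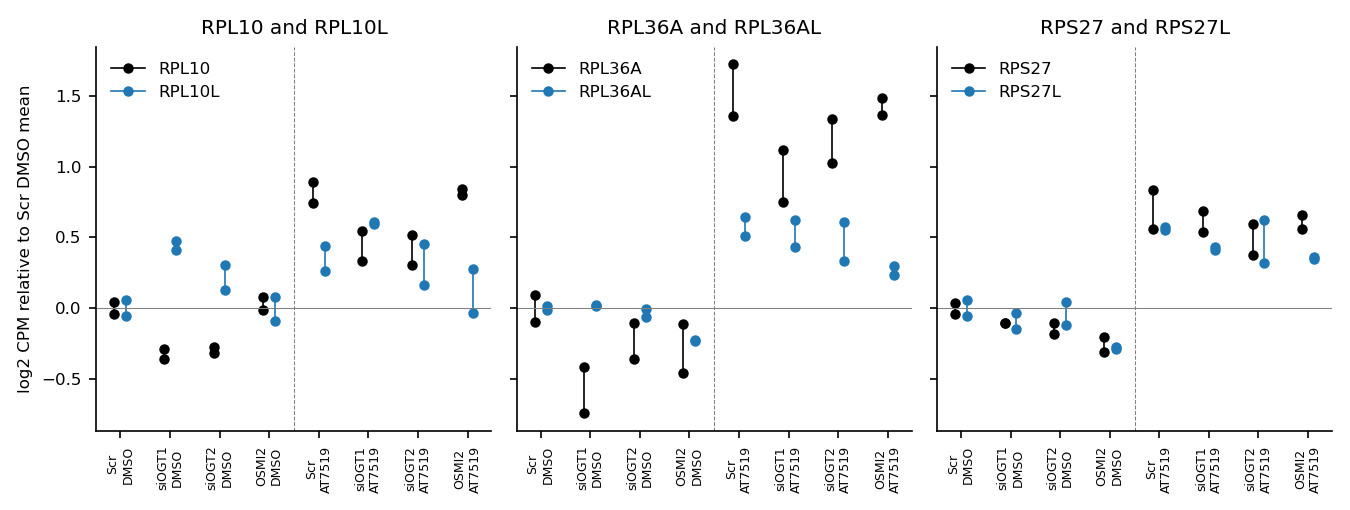
Log2 level of RPL10 and RPL10L, RPL36A and RPL36AL, and RPS27 and RPS27L relative to each gene's Scr DMSO mean (vertical axis) by group (horizontal axis), with each point a sample and lines joining the 2 samples of a group. In Scr with AT7519 both points of RPL36A lie above those of RPL36AL (mean changes 1.55 and 0.58), and RPL10L stays within 6.34 to 10.3 CPM over all samples.

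The start with the pyrimidine tract was set beside the size of the change. In Scr the median log2 change was 0.77 for 46 genes listed with the tract and 0.74 for 19 genes without it. Leaving out the genes that share sequence with a neighbour, the medians were 0.77 (43 genes) and 0.73 (18 genes). Of the genes whose starts are printed above, RPS27, RPL10, RPS19, RPS10 and RPL36A have the tract. They rose by 0.70, 0.82, 0.91, 1.54 and 1.55. RPS27L and RPL36AL, with 0 and 3 bases of capitals, rose by 0.56 and 0.58. RPL10L, with 0 bases, was at 0.35 and did not pass. Of these, RPS10 and RPL36A share coding sequence with a neighbour. The 2 sets overlapped: RPS15 (0.91) and RPL3 (0.84) are listed without the tract, and RPL22 (0.64) and RPL24 (0.63) with it. No test of the difference with and without the tract was made. Across the 16 samples, the log2 level of RPL32, RPL35A and RPS29 followed the median of the other members most closely (Pearson r = 0.993, 0.993 and 0.991), and that of RPL10L (0.277), RPL36AL (0.881) and RPS2 (0.892) least. These correlations describe samples that share library depth and treatment.

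Other genes of the translation machinery gave these values. Of 7 ribosomal protein genes outside the rule, 6 could be tested and 4 were higher with AT7519 in each arm. FAU, whose product holds the small-subunit protein eS30, rose by 0.91 in Scr. RPL22L1 (0.61) and RPL26L1 (0.51) also passed, while RPL7L1, a ribosome biogenesis factor, was at -0.10. Of 21 further genes known for the pyrimidine start, 20 could be tested, and 19, 19, 20 and 19 were higher in Scr, siOGT1, siOGT2 and OSMI2, with medians of 0.63, 0.56, 0.65 and 0.68. Over all tested genes 21.8%, 19.4%, 22.2% and 23.6% were higher, with medians of -0.05, -0.05, -0.03 and 0.02. EIF4A2, an RNA helicase of translation initiation, rose by 1.23, EEF1A1, the elongation factor that brings aminoacyl-tRNA, by 0.68, and RACK1, a scaffold on the small subunit, by 0.74 in Scr. IPO7, an import receptor of ribosomal proteins, was at 0.08 and did not pass.

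Of 58 small nucleolar RNA genes that the annotation places inside members on the same strand, 14 passed the filter on low counts. The filter took all 16 samples together, so a gene near 0 under DMSO could pass it through the AT7519 samples alone, and the number of these genes that rose is not given. SNORD83A, inside RPL3, had a mean of 1.05 CPM under DMSO in Scr and was 15.1-fold higher with AT7519 (log2 change 3.92, SE 0.27), while RPL3 rose by 0.84. SNORD100, inside RPS12, went from 0.916 to 13.2 CPM, a change of 3.84 (SE 0.20), while RPS12 rose by 0.74. SNORD14A, inside RPS13, went from 0.508 to 8.08 CPM, a change of 4.03 (SE 0.34). SNORA65, inside RPL12, changed by 0.72, and SNORA69, inside RPL39, changed by 1.05 and did not pass in Scr. SNORD15A, inside RPS3, was at 0 in both Scr DMSO samples. Box C/D (SNORD) and box H/ACA (SNORA) RNAs guide chemical modification of ribosomal RNA and are released from the intron of the host transcript. Reads of these introns were not separated from mature small RNA in the counts.

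**Figure D4:**
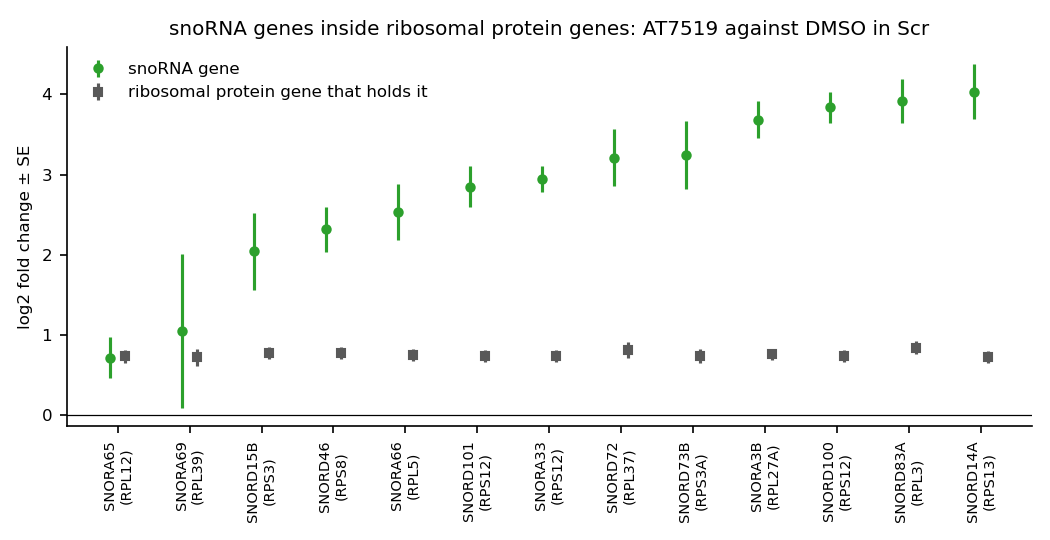
Log2 fold change of AT7519 against DMSO in Scr with its standard error (vertical axis) for 13 small nucleolar RNA genes (horizontal axis) and, beside each, for the ribosomal protein gene that holds it. SNORD15A, with 0 counts under DMSO, is not drawn, and the ribosomal protein genes lie below 1. The small nucleolar RNA genes drawn run from 0.72 to 4.03. They could pass the filter on low counts through the AT7519 samples alone, so their heights describe a selected set.

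The siRNA and OSMI2 arms were next compared with Scr, with the agent held the same. These comparisons share the Scr samples, so their values are set side by side only. Under DMSO, 13 of the 80 genes were lower in siOGT1 (7 large, 6 small), 10 in siOGT2 (5 and 5) and 4 in OSMI2 (3 and 1), and none was higher (edgeR, adjusted p under 0.05). Over all tested genes 5.51%, 2.38% and 2.49% were lower, and 4.89%, 1.92% and 0.491% higher. At an unadjusted p under 0.05, 29, 29 and 32 members were lower. In siOGT1, 1 member was higher at that p and 1 was called higher by DESeq2, and in siOGT2 and OSMI2 both counts were 0. The paralog RPL10L, at 9.39 and 8.98 CPM in siOGT1 against 7.02 and 6.49 CPM in Scr, had the highest change (0.44, adjusted p = 0.0598). Median log2 changes of large and small subunit genes were -0.14 and -0.11 for siOGT1, -0.16 and -0.15 for siOGT2, and -0.14 and -0.15 for OSMI2, against all-gene medians of -0.01, -0.02 and -0.01. Both samples lay below both Scr samples for 67, 61 and 63 members, where 29.2%, 27.5% and 27.2% of all tested genes did so.
These counts rest on few samples and on the fit. With the replicate number as a block within each agent they became 23, 22 and 29, with the compared groups alone the 13 became 25 and the 4 became 7, and in OSMI2 DESeq2 called 11, limma voom 9, the replicate block 7, upper-quartile scaling 2 and library sizes alone 1. The 13 in siOGT1 became 4, 4, 5 and 1 without Scr replicate 1, Scr replicate 2, siOGT1 replicate 1 or siOGT1 replicate 2. The 10 in siOGT2 became 4, 3, 6 and 0 without the same samples of Scr and siOGT2, and the 4 in OSMI2 became 0 without either OSMI2 sample or without Scr replicate 2.

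Under DMSO, RPS23 stood at 601 and 604 CPM in Scr. The siOGT1 samples had 443 and 433 CPM, the siOGT2 samples 435 and 420 CPM, and the OSMI2 samples 500 and 526 CPM. The 3 arms lay below Scr in each sample. The log2 change was -0.46 in siOGT1 (SE 0.09, adjusted p = 0.00197, edgeR), -0.49 in siOGT2 (adjusted p = 0.0028) and -0.23 in OSMI2 (adjusted p = 0.185). In the annotation 54.1% of the coding sequence of RPS23 lies opposite ATG10, and the sources used here do not say whether counting used the strand.
RPS27A, which makes ubiquitin fused to a small-subunit protein, was at 737 and 771 CPM in Scr, where siOGT1 gave 582 and 549, siOGT2 gave 566 and 557, and OSMI2 gave 630 and 640. The samples of the 3 arms were again all below Scr, and the changes were -0.42 (SE 0.08), -0.43 and -0.25, of which the first 2 passed.
RPS16 fell by 0.36 in siOGT1 and by 0.39 in siOGT2, and was at -0.03 in OSMI2, where 1 of its samples (638 CPM) lay between the Scr samples (658 and 622 CPM). RPLP2 fell by 0.42 in siOGT2, from 816 and 884 to 668 and 605 CPM. RPL23A fell by 0.40 in siOGT2, from 591 and 597 to 473 and 427 CPM, and 33.1% of its coding sequence lies opposite AC010761.1. RPL36A fell by 0.56 in siOGT1 (SE 0.17, adjusted p = 0.0388), from 9.84 and 8.63 to 6.93 and 5.51 CPM.

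In OSMI2 under DMSO the 4 genes that fell were RPL17, RPS26, RPL26 and RPL22. RPL17 was at 27.6 and 28.5 CPM against 37.2 and 41.5 CPM in Scr, a log2 change of -0.49 (SE 0.10, adjusted p = 0.0114, edgeR). RPS26, a small-subunit protein at the exit of the messenger RNA, was at 288 and 278 against 357 and 371 CPM, a change of -0.36 (adjusted p = 0.0137). RPL26, at 39.0 and 40.8 against 49.2 and 53.5 CPM, fell by 0.36, and RPL22 by 0.29. The groups did not overlap for any of these 4 genes. RPL17 and RPL26 are among the genes that share coding sequence with a neighbour.

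**Figure D5:**
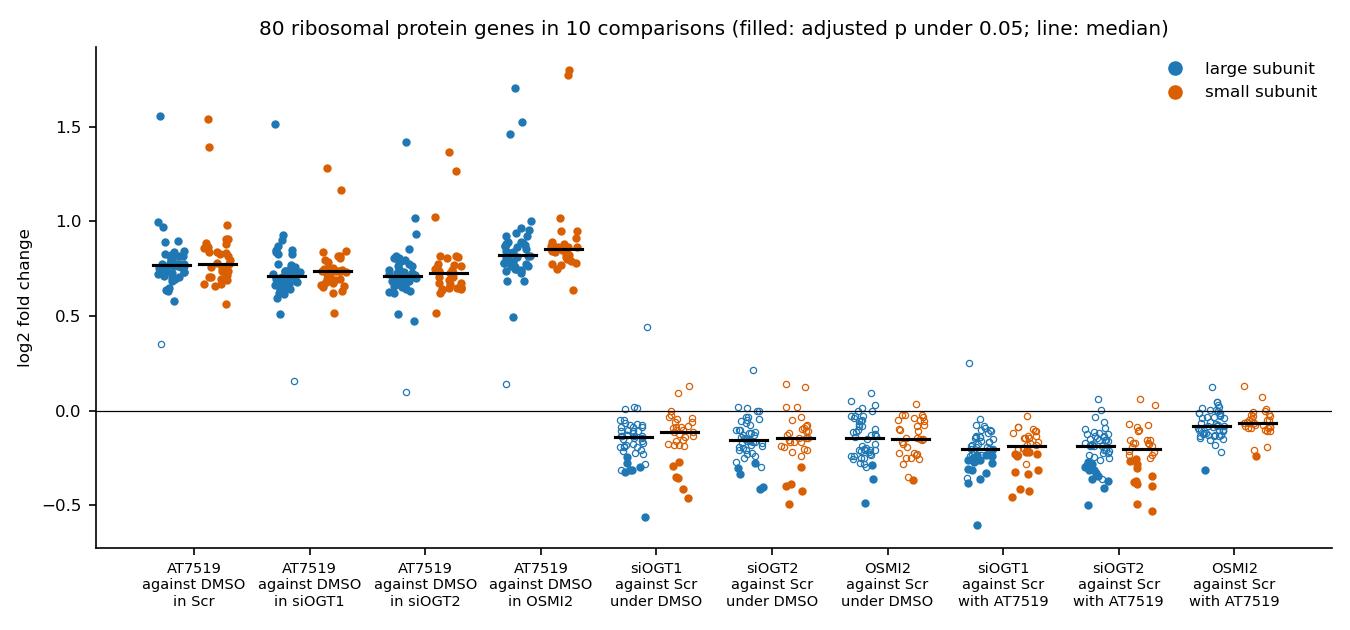
Log2 fold change (vertical axis) of the 80 genes in 10 comparisons (horizontal axis), each point a gene, filled where the adjusted p was under 0.05, with lines at the medians of the large and the small subunit. Medians lie between 0.71 and 0.85 in the 4 comparisons of AT7519 with DMSO and between -0.20 and -0.07 in the 6 comparisons with Scr, where those of OSMI2 with AT7519 turn positive with upper-quartile scaling, library sizes alone and a stricter filter on low counts.

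With AT7519 present, 28 members were lower in siOGT1 than in Scr (17 large, 11 small), 23 in siOGT2 (12 and 11) and 2 in OSMI2 (1 and 1), and 0 were higher (edgeR, with 0 higher also at an unadjusted p under 0.05 and by DESeq2). Over all tested genes 9.19%, 3.48% and 9.01% were lower, and 9.97%, 4.68% and 5.18% higher. Median log2 changes of large and small subunit genes were -0.20 and -0.19 in siOGT1 and -0.19 and -0.20 in siOGT2. In OSMI2 they were -0.08 and -0.07, and turned to 0.01 and 0.03 with upper-quartile scaling and to 0.02 and 0.03 both with library sizes alone and with a stricter filter on low counts. Both samples lay below both Scr samples for 65, 47 and 28 members, against 27.9%, 21.1% and 25.6% of all tested genes.
RPS16 was at 1125 and 1240 CPM in Scr, where siOGT1 gave 885 and 876, siOGT2 gave 824 and 812, and OSMI2 gave 1171 and 1182. The siRNA samples were all below the others, and the changes were -0.43 (adjusted p = 0.000228, edgeR), -0.53 (9.4e-05) and -0.01. RPS23 fell by 0.46 in siOGT1 and by 0.49 in siOGT2, and RPS27A fell by 0.41 and 0.34. RPL23A and RPL10 fell by 0.50 and 0.41 in siOGT2, and RPL36A by 0.60 in siOGT1. In OSMI2 the genes that fell were RPL36AL (by 0.31, at 298 and 285 against 378 and 345 CPM) and RPS26 (by 0.24).
With library sizes alone the 28 in siOGT1 became 13, and with the compared groups alone the 28, 23 and 2 became 7, 2 and 1. With a block within each agent they became 47, 43 and 5, and the 2 in OSMI2 became 0 with upper-quartile scaling or library sizes alone, 5 with no filter on low counts and 1 with a stricter one. Without single samples, the 28 in siOGT1 became 9 and 16 without replicate 1 or replicate 2 of Scr with AT7519, 6 without replicate 2 of siOGT1 with AT7519, and 18 without OSMI2 DMSO replicate 1 or siOGT1 DMSO replicate 2. The 23 in siOGT2 became 8 and 14 without replicate 1 or 2 of Scr with AT7519, and 47 and 6 without replicate 1 or 2 of siOGT2 with AT7519. The 2 in OSMI2 became 0 without replicate 1 of Scr with AT7519, 5 without either siOGT2 sample with AT7519, and 1 without either OSMI2 sample with AT7519 or any DMSO sample.

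Whether the change with AT7519 differed from that in Scr was tested as a difference of differences. No member passed in siOGT1 (0 also at an unadjusted p under 0.05, and 0 by DESeq2) or in siOGT2 (1 at an unadjusted p under 0.05, and 0 by DESeq2), where 0.0504% and 0% of all tested genes passed in edgeR. Median differences of large and small subunit genes were -0.05 and -0.06 for siOGT1, -0.06 and -0.06 for siOGT2, and 0.07 and 0.07 for OSMI2. In OSMI2, 1 member passed, against 0.747% of all tested genes. It was RPL26, which went from 39.0 and 40.8 to 108 and 112 CPM in OSMI2 and from 49.2 and 53.5 to 95.4 and 106 CPM in Scr. The difference was 0.49 log2 (SE 0.11, adjusted p = 0.0499, edgeR), and under 8 of the other settings no member passed, while DESeq2 and the replicate block each called 2 and the block within each agent 3. Leaving out 1 sample gave 0 called members except without replicate 1 of OSMI2 with AT7519 or replicate 2 of Scr with AT7519, where it gave 1. RPL17 (0.53, adjusted p = 0.0916), RPS15A (0.38, adjusted p = 0.298) and RPL22 (0.25, adjusted p = 0.463) had an unadjusted p under 0.05. Of these 4 genes RPL26, RPL17 and RPS15A share coding sequence with a neighbour.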

How the data were processed

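Total RNA from 16 LNCaP samples was sequenced from a strand-specific library, per the labels' protocols. The authors deposited raw counts per gene, and a table of normalized values (signal) that equal those counts divided by 1 median-of-ratios factor per sample. STAR, HTSeq and DESeq2, and the builds hg19 and GRCh37, are named per the submitters' processing notes, without versions. The sources used here do not say whether HTSeq counted by strand.

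The members and lists were chosen with earlier results of these data known. Counts were fitted with edgeR 4.0.16 (R 4.3.3) over all 16 samples, with 1 mean per group, filterByExpr (23830 of 60252 genes kept), TMM scaling and robust quasi-likelihood F tests on 8 residual degrees of freedom. Tests were two-sided, with Benjamini-Hochberg adjustment over all genes kept and 0.05 as the threshold. SE is the size of the log2 change divided by the square root of F. CPM values are TMM-scaled. The fit was tested on simulated data.

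Alternatives were other scalings (RLE, upper quartile, library size only, TMM without the members), DESeq2 1.42.0, limma 3.58.1 (voom, and log2 of normalized values plus 1), no filter or a mean log2 CPM of at least 3, a fit of the compared groups alone, the replicate number as a block, a member threshold of 1000, and leaving out each sample. Added after seeing the data were a block within each agent, a crossed block in siOGT2, and the members without a large same-strand overlap.

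Genes were named by rule: the 5 highest and 5 lowest changes with AT7519 in Scr per subunit, up to 4 called members per direction in other comparisons, a fixed list of well-known members, those nearest the threshold, the extremes per kilobase, and those most and least like the family's median. Some genes that the rule or the lists include are not reported here by name. Other genes named here were chosen after their values were seen. Levels per kilobase use coding length from GENCODE. The rule had named exon length. Gene overlaps come from GRCh38 annotation, matched to the deposited identifiers, and may differ from the annotation used for counting.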

Additional observations from a re-analysis of the deposited data

Results flagged for a closer look

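The change of RPL26, a large-subunit protein gene, with AT7519 differed from that in Scr by edgeR's test of the difference itself, which no other member passed. In OSMI2 0.747% of all tested genes passed this test, and 1 of 80 members is near that share. The call also depended on which samples were kept, as given above. The difference for OSMI2 was 0.49 on the log2 scale (SE 0.11, adjusted p = 0.0499, edgeR), and under 8 other settings no member passed, while DESeq2 and the replicate block each called 2 members and the block within each agent 3. Both OSMI2 samples were below both Scr samples under DMSO and above them with AT7519. Its coding sequence lies 71.0% inside AC135178.2 on the same strand, and whether shared reads had a part was not tested.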

How the results depend on the processing

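The rise of the members with AT7519 kept its direction and its count (79 or 80 of 80, or 73 of 74 without the genes that share sequence with a neighbour) in each of the 4 arms under every alternative run and without any 1 sample. The smaller differences between arms moved with the setting. Under DMSO, members called higher in siOGT1 went from 0 to 1 with upper-quartile scaling, library sizes alone, DESeq2, limma voom, a mean log2 CPM of at least 3, the compared groups only, and both replicate blocks (0 to 1 without 1 sample). Members lower in siOGT1 (13) became 25 with the compared groups only and 23 with a block within each agent (1 to 16 without 1 sample), and those in siOGT2 (10) became 22 with the latter (0 to 12). Members lower in OSMI2 (4) became 2 with upper-quartile scaling, 1 with library sizes alone, 11 with DESeq2, 9 with limma voom, 7 with the replicate block, 7 with the compared groups only and 29 with the block within each agent (0 to 5). With AT7519, the 28 in siOGT1 became 13 with library sizes alone, 7 with the compared groups only and 47 with the block within each agent (6 to 36), and the 23 in siOGT2 became 2 and 43 under the last 2 of these (6 to 47). The 2 in OSMI2 became 0 with upper-quartile scaling, 0 with library sizes alone, 5 with no filter on low counts, 1 with a mean log2 CPM of at least 3, 1 with the compared groups only and 5 with the block within each agent (0 to 5). The 1 gene with a different response in OSMI2 became 0 with RLE, upper-quartile scaling, library sizes alone, TMM without the members, limma voom, limma on log2 values, no filter and the compared groups only, 2 with DESeq2, 2 with the replicate block and 3 with the block within each agent (0 to 1 without 1 sample). Where the compared groups were fitted alone, fewer samples entered the fit. The cause of the other shifts was not tested.

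The labels do not say what a replicate number marks. Same-numbered samples of 1 agent deviated together in the siRNA arms (correlation 0.603 to 0.734 over 10028 genes, 6 pairs of groups), less so with OSMI2 (0.0473 to 0.178), and between agents the correlation was -0.135 to 0.434. The 0.434 was OSMI2 with DMSO against OSMI2 with AT7519, and the next highest between agents was 0.118. Whether a replicate number marks the same thing in OSMI2 and in the siRNA arms is therefore not known. This bears on the OSMI2 counts with either replicate block. With the replicate number as a block, members lower were 17, 13 and 7 in siOGT1, siOGT2 and OSMI2 under DMSO and 34, 27 and 2 with AT7519, and members higher with AT7519 were 80, 79, 79 and 79. The correlation of siOGT2 under DMSO with siOGT2 under AT7519 was -0.135. That of siOGT1 under DMSO with siOGT2 under AT7519 was similar at -0.122, so the value does not single out the numbering in siOGT2. With the replicate numbers crossed in siOGT2, 79 members were higher and 0 lower.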

Other observations

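Processed pseudogenes named after members made up 1585 identifiers, of which 377 passed the filter on low counts. With AT7519, 178, 153, 183 and 169 of these were higher and 13, 14, 11 and 11 lower in Scr, siOGT1, siOGT2 and OSMI2. In the same order, 21.8%, 19.4%, 22.2% and 23.6% of all tested genes were higher and 24.6%, 22%, 22.8% and 23.6% lower. The median log2 change of the 377 pseudogenes in Scr was 0.79. Some of these pseudogenes may have passed the filter only through the AT7519 samples. Reads of a member and of its pseudogenes can be alike, and the 2 were not separated beyond the deposited counts. In gene structure, members had a median transcript of 714 bases with 5 exons over a span of 5357 bases, against 2782.5 bases, 9 exons and 32329.5 bases for the 14576 protein-coding genes that passed the filter.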
